A study of Homo sapiens with 6 samples.

Results

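The genes described here are neighbours on the long arm of human chromosome 18, in the stretch that opens with HAUS1 and closes with CNDP2. They were picked by name because most of them had lower array values in the brain-seeking breast cancer line 231BrM-2a than in its parent MDA-MB-231, so that difference chose them. Values and calls in that comparison are given below as a description of the chosen genes, with no p-value for a member, and they are no independent evidence of a lower level. The list named 60 genes. Of these, 58 carried a transcript cluster, the array's unit for 1 gene, among the 18417 genes measured through a cluster with a single gene symbol. The other 2 were not analysed here. The 58 stand in the list in their RefSeq order along the chromosome.

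The study hybridised RNA of sorted cells to 6 Affymetrix Human Gene 1.0 ST arrays, 2 labelled biological replicates for each of 3 lines. 231BrM-2a and 231BoM-1833 are derivatives of MDA-MB-231 that are known to seed brain and bone, and MDA-MB-231 is a widely used triple-negative breast carcinoma line. All 3 were grown in RPMI-1640 medium with serum and sorted with magnetic beads for cells without CD24 and with CD44 and ESA, the protein that EPCAM encodes, a profile used to enrich cancer stem cells. Each derivative was set against the parental line. Each group is therefore a single line and not a set of independent metastases, and it is not stated that the 2 replicates of a line were cultured or sorted apart. A p-value here therefore reflects only how far replicate arrays differ, which may be technical variation. Cells in these RNA samples were pooled, and fewer cells with a transcript cannot be told apart from less transcript per cell.

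The long arm of chromosome 18 is a region that many carcinomas lose, and it is known for a group of genes that restrain growth. SMAD4 is the shared partner of the receptor-activated SMAD proteins and carries signals from TGF-beta and BMP receptors into the nucleus, SMAD2 is an activated SMAD of the TGF-beta branch, and SMAD7 blocks both branches. The same stretch holds the netrin receptor gene DCC and BCL2, whose protein protects mitochondria during apoptosis.

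RefSeq promoter windows, which run from 250 bases before to 50 bases after a gene's start, were found for 53 of the 58 members. 4 are printed to show what the start regions of members with opposite differences look like: RAB27B and MALT1, which were far below the parental line in the brain line, SMAD4, which was lower by less, and ALPK2, the member with the highest difference. They lie at chr18:54717607-54717906 (plus strand) for RAB27B, chr18:58671215-58671514 (plus strand) for MALT1, chr18:51029963-51030262 (plus strand) for SMAD4 and chr18:58629042-58629341 (minus strand) for ALPK2, in RefSeq's GRCh38.p14. Each reads 5′ to 3′ on the gene's strand, and capitals mark CG dinucleotides.
RAB27B: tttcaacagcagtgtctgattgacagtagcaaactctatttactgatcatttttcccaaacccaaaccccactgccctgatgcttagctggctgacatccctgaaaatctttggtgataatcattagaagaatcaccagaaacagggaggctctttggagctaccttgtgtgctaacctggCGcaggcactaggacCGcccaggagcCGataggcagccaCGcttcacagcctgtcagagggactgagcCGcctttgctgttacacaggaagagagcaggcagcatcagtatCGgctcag
MALT1: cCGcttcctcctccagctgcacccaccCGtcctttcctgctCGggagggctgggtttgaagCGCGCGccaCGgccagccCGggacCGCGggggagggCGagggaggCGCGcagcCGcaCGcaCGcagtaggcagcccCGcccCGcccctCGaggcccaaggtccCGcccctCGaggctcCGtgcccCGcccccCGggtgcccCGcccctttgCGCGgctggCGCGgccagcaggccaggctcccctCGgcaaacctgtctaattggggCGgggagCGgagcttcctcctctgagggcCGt
SMAD4: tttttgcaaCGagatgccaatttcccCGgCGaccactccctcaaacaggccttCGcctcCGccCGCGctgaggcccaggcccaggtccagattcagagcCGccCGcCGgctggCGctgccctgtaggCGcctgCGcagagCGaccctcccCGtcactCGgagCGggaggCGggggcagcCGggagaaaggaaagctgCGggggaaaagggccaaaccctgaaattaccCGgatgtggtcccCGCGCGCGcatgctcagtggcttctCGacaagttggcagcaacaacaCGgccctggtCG
ALPK2: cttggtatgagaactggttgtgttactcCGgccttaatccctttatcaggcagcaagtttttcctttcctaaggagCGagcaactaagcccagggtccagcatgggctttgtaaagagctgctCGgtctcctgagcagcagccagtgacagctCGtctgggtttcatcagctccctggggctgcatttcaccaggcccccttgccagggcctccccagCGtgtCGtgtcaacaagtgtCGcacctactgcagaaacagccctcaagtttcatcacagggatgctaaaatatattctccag
RAB27B has more than 1 start in the table, and the window printed is the one listed first. The windows of MALT1 and SMAD4 hold 33 and 28 CG dinucleotides, against 6 in that of RAB27B and 7 in that of ALPK2, so members with large differences in the same direction had both kinds of start region.

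The 27 windows of members called lower in the brain line held a median of 28 CG dinucleotides, against 25.5 in the 26 windows of the other members and 14 in all 27305 windows of the table. On either strand, GGGCGG, the core letters of a GC box, stood in 70.4% of the windows of lower members, 61.5% of those of the other members and 44.6% of all windows. CACGTG, an E-box, stood in 14.8%, 3.85% and 7.43% in the same order, which is 4, 1 and 2030 windows. TATAAA stood in 3.70%, 11.5% and 12.0%. The 3 motifs cannot lie within each other, matches were counted for each alone, and a match describes letters, not binding. For every gene only the window listed first was used. The 27305 windows include genes beyond the 18417 measured, so the members and all windows are unlike sets.

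Of the 58 members, 49 had a lower mean and 9 a higher one in 231BrM-2a than in MDA-MB-231. A member is called lower or higher where the adjusted p of limma's two-sided test, taken over all 21214 named clusters, was under 0.05. By that measure 29 members were lower, against 8.59% of all named clusters, and 1 was higher, against 10.5%. The count of lower members was 19 without the second MDA-MB-231 array. Both brain-line arrays were below both parental arrays for 43 members, against 36.6% of all named clusters, and above both for 4, against 27.2%. The members' median difference was -0.39 on the log2 scale, and that of all genes was -0.05. These counts use the contrast by which the members were chosen. On single arrays, the median member stood -0.49 and -0.37 from the MDA-MB-231 mean in 231BrM-2a, 0.06 and -0.02 in 231BoM-1833 and -0.01 and 0.01 in MDA-MB-231. Both brain-line arrays thus lay below the other 4 on this median.

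The members were also divided by their mean log2 value over all 6 arrays. Of the 39 members with a mean log2 value above 7, 26 were called lower and 0 higher in the brain line, with a median difference of -0.58. Among the 10093 genes above that level in the whole table, 11.7% were called lower and 15.0% higher, with a median of -0.00. Of the 19 members at or under the level, 3 were called lower and 1 higher, with a median of -0.12. The level of 7 only divides the values, since no background level came with them, and the difference itself enters the mean: RAB27B, WDR7, BCL2 and SKA1 lie above 7 through their bone-line and parental arrays and below it on both brain-line arrays.

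**Figure D1:**
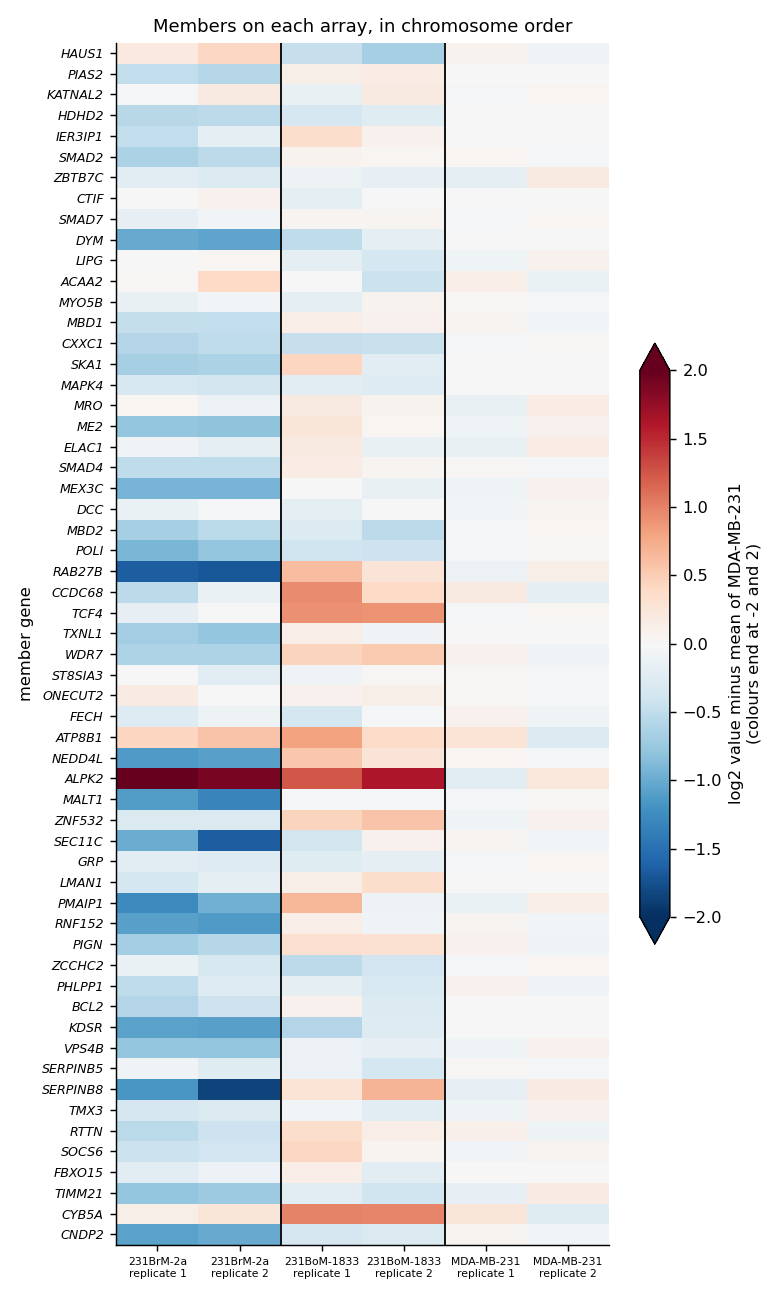
Log2 value of each of the 58 members (rows, in chromosome order from HAUS1 to CNDP2) on each of the 6 arrays (columns), minus the mean of the 2 MDA-MB-231 arrays. Blue marks values below that mean and red values above it, with colours ending at -2 and 2. Most rows are blue in both 231BrM-2a columns and ALPK2 is red in all 4 columns of the derivatives.

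Of the 5 members that act in or on SMAD signalling, 4 were called lower in the brain line and SMAD7 was not. SMAD4 had log2 values of 9.25 and 9.26 in 231BrM-2a, 9.91 and 9.81 in 231BoM-1833, and 9.78 and 9.74 in MDA-MB-231. Both brain-line arrays were below the other 4, and the brain line differed from the parental line by -0.51 ± 0.10 (SE, 2 arrays per line), a 1.42-fold lower level. SMAD2 had 8.68 and 8.78 in 231BrM-2a, 9.38 and 9.35 in 231BoM-1833, and 9.35 and 9.26 in MDA-MB-231. Its difference was -0.58 ± 0.10, again with no overlap between the brain line and the others. A second SMAD2 cluster differed by -0.30 and was not called. SMAD7, the inhibitory SMAD, had 6.51 and 6.62 in 231BrM-2a, 6.72 and 6.73 in 231BoM-1833, and 6.64 and 6.71 in MDA-MB-231, a difference of -0.11 ± 0.10. NEDD4L, a ubiquitin ligase known to act on SMAD proteins and on the epithelial sodium channel, had 9.95 and 10.00 in 231BrM-2a, 11.62 and 11.33 in 231BoM-1833, and 11.12 and 11.04 in MDA-MB-231. It was 2.15-fold lower in the brain line than in the parental line (-1.11 ± 0.12), and the bone line lay above both. PIAS2, a SUMO ligase, differed by -0.53 and was called lower.

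Of the 7 members grouped here with cell death and survival, 5 were called lower, with a median of -1.11. The role groups, with the SMAD group above, were drawn up with these results known. In the contrast that chose the members, 29 of all 58 were called lower, against 8.59% of all named clusters. The lower calls of each role group are to be read beside that share of the members. Whether any role group differed from the other members was not tested. MALT1, a protease and scaffold that carries receptor signals to NF-kappaB, had 7.33 and 7.13 in 231BrM-2a, 8.42 and 8.42 in 231BoM-1833, and 8.42 and 8.48 in MDA-MB-231. The bone and parental lines were nearly level, and the brain line was 2.33-fold below the parental line (-1.22 ± 0.11). PMAIP1, which encodes the BH3-only protein NOXA that promotes apoptosis, had 8.34 and 8.66 in 231BrM-2a, 10.28 and 9.52 in 231BoM-1833, and 9.49 and 9.74 in MDA-MB-231. The bone-line arrays lay on either side of the parental arrays, and the brain line differed from the parental line by -1.12 ± 0.23. BCL2, the survival gene, had 6.70 and 6.87 in 231BrM-2a, 7.37 and 7.02 in 231BoM-1833, and 7.29 and 7.29 in MDA-MB-231, a difference of -0.51 ± 0.14. Genes that promote and genes that restrain apoptosis were thus both lower. SERPINB8, a serpin that inhibits furin, had 7.37 and 6.68 in 231BrM-2a, 8.80 and 9.21 in 231BoM-1833, and 8.36 and 8.70 in MDA-MB-231. Its brain-line arrays were the lowest and its bone-line arrays the highest, and the brain line was 2.83-fold below the parental line (-1.50 ± 0.23). RNF152, a lysosomal ubiquitin ligase, had 6.12 and 6.06 in 231BrM-2a, 7.32 and 7.12 in 231BoM-1833, and 7.26 and 7.14 in MDA-MB-231, a difference of -1.11 ± 0.11. PHLPP1, a phosphatase of AKT, had 7.60 and 7.85 in 231BrM-2a, 7.93 and 7.80 in 231BoM-1833, and 8.19 and 8.03 in MDA-MB-231. It differed by -0.38 ± 0.13 without being called, and the arrays of the derivatives overlapped. SERPINB5, which encodes maspin, had log2 values between 4.14 and 4.52 on all 6 arrays and a difference of -0.15.

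The 11 members of the secretory pathway and vesicle traffic gave 6 lower calls and 0 higher, with a median of -0.62. RAB27B, a small GTPase of secretory vesicles and exosomes, had 5.90 and 5.85 in 231BrM-2a, 8.17 and 7.80 in 231BoM-1833, and 7.44 and 7.67 in MDA-MB-231. Its brain-line level was 3.20-fold below the parental one (-1.68 ± 0.14), the lowest difference among the 58 members. SEC11C, a catalytic subunit of the signal peptidase, had 8.27 and 7.63 in 231BrM-2a, 8.90 and 9.36 in 231BoM-1833, and 9.33 and 9.21 in MDA-MB-231. The brain-line arrays differed from each other by more than the arrays of MDA-MB-231, and the difference from the parental line was -1.32 ± 0.21. DYM, a gene of Golgi organisation, had 8.16 and 8.13 in 231BrM-2a, 8.66 and 8.99 in 231BoM-1833, and 9.18 and 9.17 in MDA-MB-231. The 3 lines were separate in that order, with a brain-line difference of -1.03 ± 0.12. VPS4B, an ATPase of the ESCRT machinery, differed by -0.78, and PIGN, an enzyme of GPI anchor synthesis, by -0.62, both called lower. LMAN1, a cargo receptor between endoplasmic reticulum and Golgi, differed by -0.28, IER3IP1 by -0.33, the disulfide isomerase TMX3 by -0.31 and the motor gene MYO5B by -0.10, none of them called. ATP8B1, a phospholipid flippase, had 8.58 and 8.73 in 231BrM-2a, 8.95 and 8.52 in 231BoM-1833, and 8.42 and 7.88 in MDA-MB-231. Both derivatives lay above the parental line, the brain line by 0.50 ± 0.19, without a call.

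Among 10 members of metabolism and mitochondria, 6 were called lower and 0 higher, with a median of -0.64. KDSR, a reductase of sphingolipid synthesis, had 9.57 and 9.55 in 231BrM-2a, 10.05 and 10.38 in 231BoM-1833, and 10.63 and 10.64 in MDA-MB-231. CNDP2, a cytosolic dipeptidase and the last gene of the stretch, had 9.21 and 9.26 in 231BrM-2a, 9.94 and 9.98 in 231BoM-1833, and 10.34 and 10.22 in MDA-MB-231. For both genes the bone line stood between the other lines, and the brain line was 2.11-fold and 2.05-fold below the parental line. ME2, the mitochondrial malic enzyme, differed by -0.78, TIMM21, of mitochondrial protein import, by -0.76, TXNL1, a thioredoxin-like protein bound to the proteasome, by -0.73 and HDHD2 by -0.54, all called lower. FECH, the last enzyme of haem synthesis, differed by -0.19 and the lipase gene LIPG by 0.02. ACAA2, a mitochondrial thiolase, had 7.85 and 8.22 in 231BrM-2a, 7.84 and 7.40 in 231BoM-1833, and 7.96 and 7.70 in MDA-MB-231, so both derivatives overlapped the parental line. Its brain-line difference of 0.20 ± 0.18 was close to its error.

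The nuclear members were split. Of 8 genes of chromatin, DNA repair and transcription, 4 were called lower and 0 higher, with a median of -0.38. MBD2, which binds methylated DNA, had 9.47 and 9.59 in 231BrM-2a, 9.86 and 9.60 in 231BoM-1833, and 10.09 and 10.17 in MDA-MB-231. It was 1.52-fold below the parental line in the brain line, with the bone line between. MBD1, its relative, differed by -0.48, CXXC1, which binds unmethylated CpG and belongs to a histone methyltransferase complex, by -0.54 and POLI, a translesion DNA polymerase, by -0.85, all called lower. The zinc finger gene ZNF532 differed by -0.29, ZBTB7C by -0.25 and ONECUT2 by 0.09. TCF4, an E protein, had 4.86 and 5.02 in 231BrM-2a, 5.94 and 5.92 in 231BoM-1833, and 4.98 and 5.06 in MDA-MB-231, so its brain-line and parental arrays overlapped (-0.08 ± 0.11). Of the 4 members that handle RNA, MEX3C, a ubiquitin ligase that binds mRNA, was called lower with -0.93. The tRNA processing gene ELAC1 differed by -0.14, the translation factor gene CTIF by 0.05 and ZCCHC2 by -0.23.

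Of the 4 spindle and centrosome members, SKA1, a subunit of the complex that holds kinetochores on microtubules, differed by -0.65 and the centriole gene RTTN by -0.47, both called lower. KATNAL2 differed by 0.08. HAUS1, a subunit of augmin and the first gene of the stretch, had 8.52 and 8.75 in 231BrM-2a, 7.87 and 7.66 in 231BoM-1833, and 8.40 and 8.25 in MDA-MB-231. Its brain-line arrays were the highest and its bone-line arrays the lowest, with a brain-line difference of 0.31 ± 0.13.

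ALPK2, which encodes an alpha-kinase, was the only one of the 58 members called higher in the brain line. It had 6.96 and 6.74 in 231BrM-2a, 6.08 and 6.47 in 231BoM-1833, and 4.62 and 5.07 in MDA-MB-231. The 3 lines did not overlap, and the brain-line level was 4.02-fold above the parental one (2.01 ± 0.18). MALT1, its next neighbour among the members, had the fourth lowest difference. Of the other kinases, ligands and receptors, MAPK4 was called lower with -0.34. SOCS6, a suppressor of cytokine signalling, differed by -0.40 and GRP, the gastrin-releasing peptide, by -0.24. DCC, the netrin receptor, had 5.06 and 5.18 in 231BrM-2a, 5.02 and 5.20 in 231BoM-1833, and 5.14 and 5.26 in MDA-MB-231. All 3 lines overlapped for DCC. The remaining members, MRO, CCDC68, ST8SIA3 and FBXO15, differed by -0.03, -0.33, -0.12 and -0.17, none of them called.

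**Figure D2:**
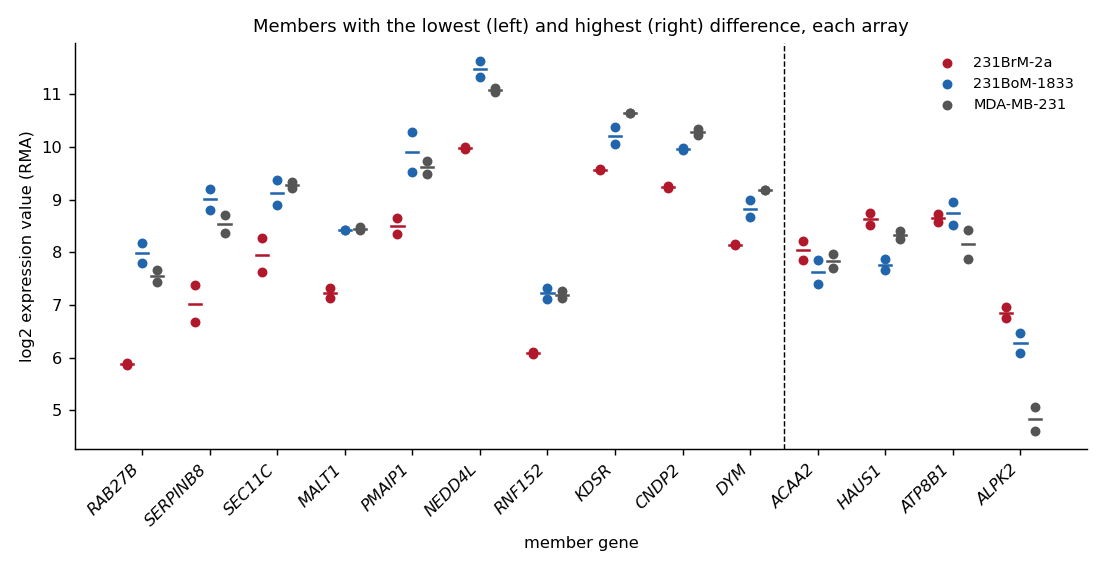
Log2 expression value (y axis) on each array for the 10 members with the lowest (left of the dashed line) and the 4 with the highest (right) difference between 231BrM-2a and MDA-MB-231. Points are arrays and bars the mean of 2 arrays. For the 10 genes on the left both 231BrM-2a points lie below all points of the other lines, while ALPK2 is highest in 231BrM-2a. Levels of different genes come from different probes and are not comparable.

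Set against the bone line, the brain line gave a like picture, but the brain-line arrays by which the members were chosen enter here too. Counts and differences in this contrast are therefore also a description and no independent evidence of a lower level. In 231BrM-2a against 231BoM-1833, 31 members were called lower, against 11.0% of all named clusters, and 2 higher, against 12.5%, with a median of -0.48 where that of all genes was 0.01. The lowest differences were RAB27B at -2.11, SERPINB8 at -1.98, NEDD4L at -1.51 and PMAIP1 at -1.40, and HAUS1 at 0.86 and ALPK2 at 0.57 were the members called higher. Both brain-line arrays were below both bone-line arrays for 40 members, against 28.1% of all named clusters, and above both for 6, against 32.0%. The brain line had the lowest mean of the 3 lines for 45 members. Replicate arrays of a member had a median SD of 0.08 in 231BrM-2a, 0.13 in 231BoM-1833 and 0.08 in MDA-MB-231.

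In the bone line the members' median stood near that of all genes. In 231BoM-1833 against MDA-MB-231, a contrast the choice of members did not use apart from its MDA-MB-231 arrays, 29 members had a lower and 29 a higher mean, with a median of -0.01 against -0.05 for all genes. 5 members were called lower, against 7.38% of all named clusters, and 5 higher, against 8.43%. The share of members called, 8.62% in each direction, was near those backgrounds. Both bone-line arrays were below both parental arrays for 18 members, against 35.7% of all named clusters, and above both for 20, against 24.1%.

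3 of these calls were past the threshold under every alternative that kept the gene, since TCF4 and ALPK2 are among the dimmest 33.3% of clusters that 1 alternative left out. TCF4, with the values given above, was 1.88-fold higher in the bone line (0.91 ± 0.11, limma adjusted p = 0.00108). ALPK2 was 2.70-fold higher (1.43 ± 0.18, limma adjusted p = 0.0014). CYB5A, the microsomal electron carrier cytochrome b5, had 9.56 and 9.70 in 231BrM-2a, 10.44 and 10.43 in 231BoM-1833, and 9.68 and 9.21 in MDA-MB-231. Its bone-line arrays were above all others, 1.98-fold over the parental line (0.98 ± 0.15, limma adjusted p = 0.00384). For TCF4 and CYB5A, brain-line and parental arrays overlapped, while ALPK2 was high in both derivatives.

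The other 7 calls were smaller. WDR7, a WD-repeat protein of vesicle acidification, had 6.48 and 6.50 in 231BrM-2a, 7.55 and 7.63 in 231BoM-1833, and 7.19 and 7.03 in MDA-MB-231. It rose in the bone line (0.49 ± 0.11, limma adjusted p = 0.0174) and had its lowest values in the brain line. ZNF532 had 7.74 and 7.74 in 231BrM-2a, 8.48 and 8.60 in 231BoM-1833, and 7.94 and 8.11 in MDA-MB-231, and it rose in the bone line (0.51 ± 0.11, limma adjusted p = 0.016). HAUS1 fell in the bone line (-0.56 ± 0.13, limma adjusted p = 0.0204), where its arrays were below those of the other lines. CXXC1 had 7.14 and 7.22 in 231BrM-2a, 7.27 and 7.28 in 231BoM-1833, and 7.71 and 7.74 in MDA-MB-231, and POLI had 7.90 and 8.02 in 231BrM-2a, 8.41 and 8.39 in 231BoM-1833, and 8.78 and 8.83 in MDA-MB-231. Both were lower in each derivative, and in the bone line CXXC1 fell by 0.45 and POLI by 0.41 (limma adjusted p = 0.018 and 0.0291). ZCCHC2, a zinc finger gene, had 7.65 and 7.47 in 231BrM-2a, 7.28 and 7.40 in 231BoM-1833, and 7.75 and 7.83 in MDA-MB-231. This ZCCHC2 cluster was lowest in the bone line (-0.45 ± 0.11, limma adjusted p = 0.0278). A second ZCCHC2 cluster was lowest in the brain line, with means of 5.54 in 231BrM-2a, 5.74 in 231BoM-1833 and 5.90 in MDA-MB-231. Its bone-line difference of -0.16 was not called. KDSR fell in the bone line by 0.43 (limma adjusted p = 0.0487).

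All 7 of these calls were lost without the second MDA-MB-231 array, although the differences kept their sign. Such a fit has 1 array in a line, and calls over all named clusters also became fewer. With all 6 arrays kept, testing all clusters in place of the named ones ended the calls of HAUS1, POLI, ZCCHC2 and KDSR. The replicate number as a block also ended those of POLI and KDSR (limma adjusted p = 0.0507 and 0.0632). Taking the mean of a symbol's clusters ended that of ZCCHC2 (-0.305, limma adjusted p = 0.0713). Without the first MDA-MB-231 array, limma's adjusted p was 0.114 for HAUS1, 0.0746 for CXXC1, 0.0973 for POLI, 0.0993 for ZNF532, 0.0873 for ZCCHC2 and 0.15 for KDSR. Without the second it was 0.0735 for HAUS1, 0.111 for CXXC1, 0.153 for POLI, 0.13 for WDR7, 0.0534 for ZNF532, 0.158 for ZCCHC2 and 0.19 for KDSR, so 0 members were called lower without either parental array and 3 were called higher without the second. Without the first 231BoM-1833 array, POLI (0.0612), ZCCHC2 (0.0907) and KDSR (0.176) lost their calls and MBD2 gained one (-0.53, limma adjusted p = 0.0298), giving 3 lower. Without the second, HAUS1 (0.0788), POLI (0.0735), WDR7 (0.0573) and ZNF532 (0.0583) lost theirs, while DYM (-0.51, limma adjusted p = 0.0304), RAB27B (0.62, 0.0274), CCDC68 (0.94, 0.0214), ATP8B1 (0.80, 0.0438), NEDD4L (0.54, 0.0269) and PMAIP1 (0.66, 0.0424) gained them, giving 8 higher. ATP8B1 was also called without the first MDA-MB-231 array (0.86, limma adjusted p = 0.0438). KDSR was not called without either 231BrM-2a array, which changes the shared estimate of the spread alone (limma adjusted p = 0.0788).

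**Figure D3:**
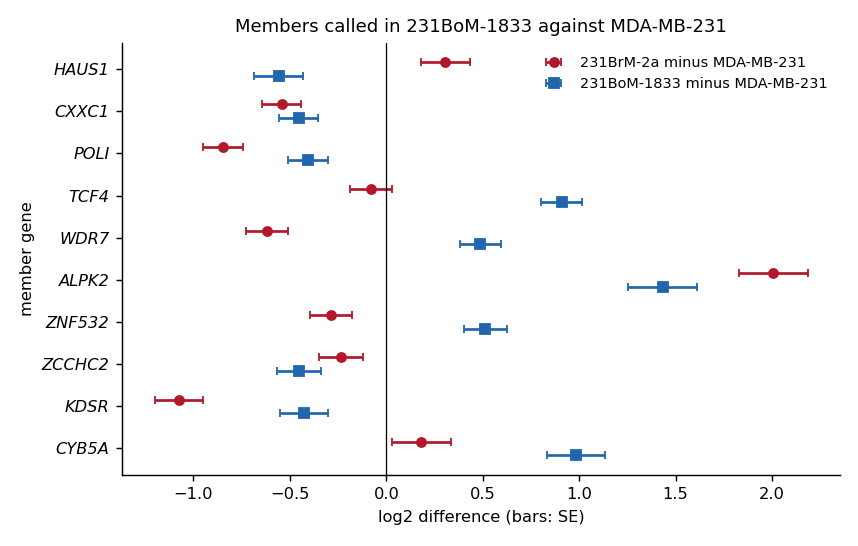
Log2 difference from MDA-MB-231 (x axis) with limma's standard error (bars) for the 10 members called in 231BoM-1833 against MDA-MB-231, in chromosome order. Circles show 231BrM-2a and squares 231BoM-1833, 2 arrays per line. TCF4, CYB5A and ALPK2 have the highest bone-line differences (0.91, 0.98 and 1.43), and WDR7, ZNF532, HAUS1 and TCF4 have opposite signs in the derivatives, TCF4 with a brain-line difference of -0.08.

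The lower values were not bounded by the listed stretch. RefSeq order placed 264 measured genes on chromosome 18. The 144 long-arm genes that are no members had 41 lower and 1 higher calls in the brain line, with a median of -0.21. These are 28.5% and 0.694%, against 8.57% and 10.4% of all genes. Above a mean of 7, 32 of 63 such genes (50.8%) were called lower and 0 higher, with a median of -0.40, against 26 of 39 members and a median of -0.58. On the short arm, 2 of 36 genes above 7 were called lower and 9 higher, with a median of 0.23. In the bone line, the same 63 long-arm genes gave 5 lower and 5 higher calls and a median of 0.03. This is 7.94% in each direction, against 10.4% lower and 11.2% higher of all genes above 7. The share of genes above 7 called lower in the brain line was 43.5% for chromosome 18 as a whole, 60 of 138 genes. It was between 1.95% and 28.5% for the other 22 chromosomes. The 138 genes include the 39 members, 26 of them called lower, which were chosen by this same contrast. Chromosome 18 was therefore not set against the others on equal terms.

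The segments on either side of the members also had more lower than higher calls. Over all levels, the 78 long-arm genes between ROCK1 and HAUS1 gave 23 lower and 1 higher calls with a median of -0.25, the 43 other genes between HAUS1 and CNDP2 gave 11 and 0 with a median of -0.18, and the 23 genes beyond CNDP2 gave 7 and 0 with a median of -0.27. The 62 short-arm genes gave 3 and 13 with a median of 0.13. The lower calls between ROCK1 and HAUS1 numbered 12 without the first and 11 without the second 231BrM-2a array, and 11 without the first and 8 without the second MDA-MB-231 array. Beyond CNDP2 they numbered 4 without either 231BrM-2a array or the second MDA-MB-231 array, and among the 43 other genes of the stretch 7 without either MDA-MB-231 array. On the short arm the lower calls numbered 1 without the second 231BrM-2a array or the second MDA-MB-231 array. Among the genes of the stretch that are no members, CCBE1 had the largest change. CCBE1, a secreted factor needed for lymphatic vessel growth, had 5.79 and 5.07 in 231BrM-2a, 8.67 and 8.82 in 231BoM-1833, and 9.44 and 9.44 in MDA-MB-231. It was 16.1-fold lower in the brain line than in the parental line (-4.01 ± 0.20, limma adjusted p = 6.18e-06). The small nucleolar RNA SNORD58A (-1.15), the asparaginyl-tRNA synthetase gene NARS1 (-1.02) and C18orf54 (-0.99) followed among these non-members.

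At the edges the calls were mixed. Of the 5 measured genes before HAUS1, SLC14A1, EPG5, SIGLEC15, PSTPIP2 and ATP5F1A, none was called in the brain line, with differences of -0.30, -0.39, -0.13, -0.28 and 0.18. Of the 5 after CNDP2, ZNF407-AS1 (-0.80) and PTGR3 (-0.99) were called lower, while CNDP1, ZNF407 and TSHZ1 differed by 0.06, -0.12 and -0.45 without a call. The cluster of ZNF407-AS1 and that of ZNF407 lie on opposite strands of overlapping loci by name, and their signals were read from separate probes.

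**Figure D4:**
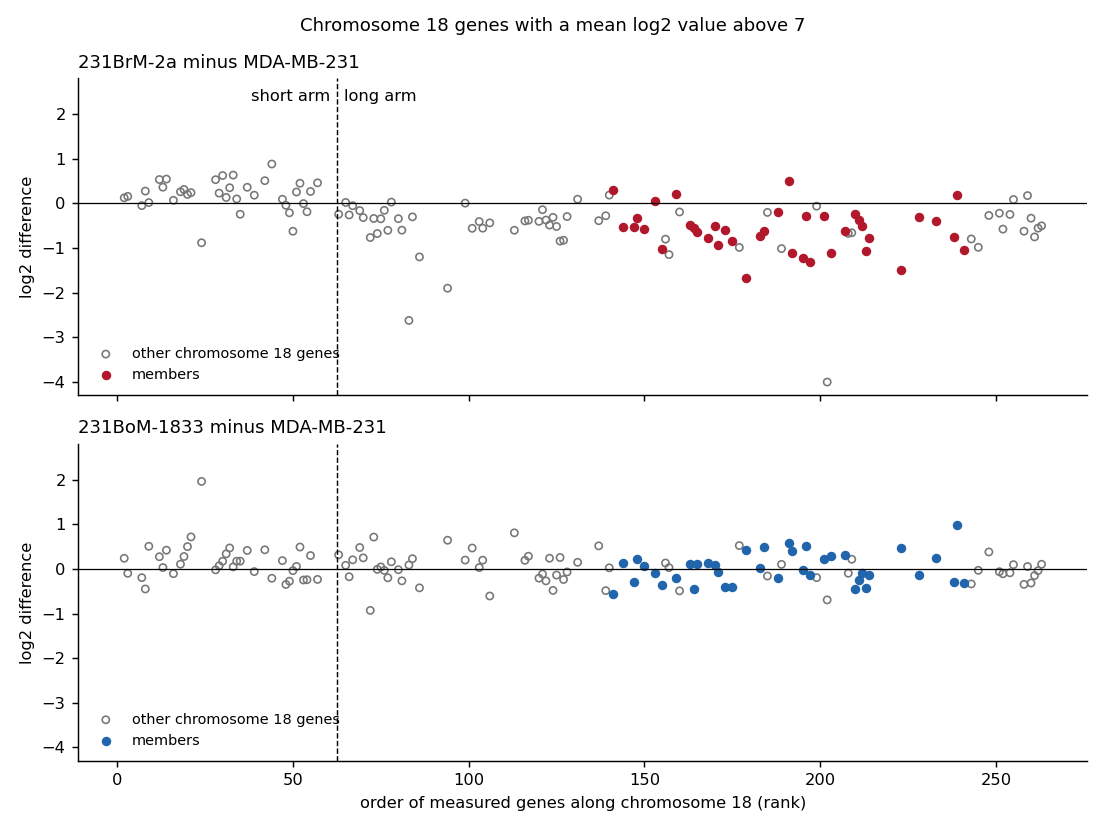
Log2 difference from MDA-MB-231 (y axis) of the chromosome 18 genes with a mean log2 value above 7, in their order along the chromosome (x axis, rank among 264 measured genes). The upper panel shows 231BrM-2a and the lower 231BoM-1833, filled points are members and open points other genes, and the dashed line parts the arms. In 231BrM-2a most long-arm points lie below 0 and most short-arm points above it, and in 231BoM-1833 both arms scatter around 0.

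**Figure D5:**
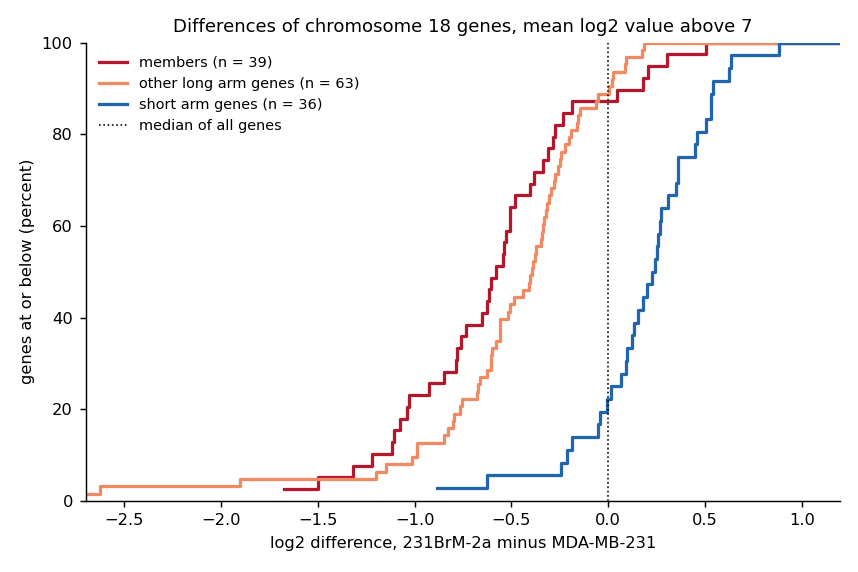
Percent of genes (y axis) at or below each log2 difference between 231BrM-2a and MDA-MB-231 (x axis) for members, other long-arm genes and short-arm genes of chromosome 18 with a mean log2 value above 7. The dotted line is the median of all genes above that level. Medians are -0.58, -0.40 and 0.23 for the 3 sets, and the axis ends before CCBE1 at -4.01.

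Partners of the members that lie on other chromosomes did not move in 1 direction. Of 127 such genes measured from 12 lists, 16 fell and 21 rose in the brain line, with a median of -0.01. These are 12.6% and 16.5%, against 8.59% and 10.5% of all named clusters. In the bone line 17 fell and 10 rose, with a median of -0.07. These are 13.4% and 7.87%, against 7.38% and 8.43% of all named clusters. In the brain line the counts were 7 lower and 13 higher without the first and 8 and 11 without the second 231BrM-2a array, and 5 and 13 without the first and 8 and 11 without the second MDA-MB-231 array. In the bone line the lower calls were 8 without the second 231BoM-1833 array, 3 without the first and 2 without the second MDA-MB-231 array. The higher calls there were 6 without the first 231BoM-1833 array, 4 without the first and 2 without the second MDA-MB-231 array. Lists and members were drawn up with results of these data known.

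Around the SMAD members, 10 of 23 pathway genes rose and 4 fell in the brain line. TGFBR3, a co-receptor for TGF-beta, had 9.63 and 9.68 in 231BrM-2a, 8.42 and 8.24 in 231BoM-1833, and 8.30 and 7.95 in MDA-MB-231. It rose in the brain line (1.52 ± 0.14, limma adjusted p = 0.000123) and differed by 0.21 without a call in the bone line. ID3, an inhibitor of E proteins that SMADs induce, rose by 1.30 in the brain line (limma adjusted p = 0.000941) and differed by -0.14 in the bone line. BAMBI, a decoy receptor, rose in both derivatives, by 1.24 in the brain line and 1.08 in the bone line (limma adjusted p = 0.00263 and 0.0077). In the list of E proteins and their inhibitors around TCF4, 4 of 7 rose and 1 fell in the brain line. ID3, ID2 (1.22, limma adjusted p = 0.000462) and ID1 (0.85, limma adjusted p = 0.0125) were at the top. These ID genes also stand in the SMAD list and are counted in both. In the bone line ID1 fell by 0.70.

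The NEDD4 list, ubiquitin ligases related to NEDD4L and a target of it, had 2 genes higher and 1 lower of 12 in the brain line. SMURF1 and SMURF2 stand in this list and in the SMAD list. SCNN1A, which encodes a subunit of the epithelial sodium channel, had 9.59 and 9.44 in 231BrM-2a, 6.07 and 6.16 in 231BoM-1833, and 7.14 and 7.38 in MDA-MB-231. It rose by 2.26 in the brain line (limma adjusted p = 8.26e-06) and fell by 1.14 in the bone line (limma adjusted p = 0.000592), against the order of NEDD4L values in the lines. SMURF2, a ligase of SMADs and their receptors, was -0.88 in the brain line and 0.72 in the bone line (limma adjusted p = 0.00108 and 0.0046), the same order as NEDD4L. Whether the order of SCNN1A or SMURF2 has to do with NEDD4L was not tested. HECW2 rose in the bone line by 1.39 (limma adjusted p = 0.00021).

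Beside the apoptosis members, 2 of 13 relatives of BCL2 fell and 1 rose in the brain line. BCL2A1, a survival gene and NF-kappaB target, had 4.31 and 4.62 in 231BrM-2a, 6.96 and 6.20 in 231BoM-1833, and 5.77 and 5.38 in MDA-MB-231. It was -1.11 in the brain line and 1.00 in the bone line (limma adjusted p = 0.0108 and 0.0225). BCL2L11, which encodes the BH3-only protein BIM, rose by 0.59 in the brain line (limma adjusted p = 0.00754), and BCL2L1 fell by 0.55 in the bone line (limma adjusted p = 0.011). Of 8 genes that act with MALT1 at the entry to NF-kappaB, 3 fell in the brain line, BCL10, the direct partner of MALT1, by 0.65, IKBKB by 0.41 and MAP3K7 by 0.35 (limma adjusted p = 0.00902, 0.0328 and 0.0444), and 0 rose. In the bone line 0 of the 8 were called.

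The other lists held few calls. Of 11 spindle partners, SKA3, a subunit of the SKA complex, fell by 1.16 in the brain line while SKA2 rose by 0.67 and KATNAL1, a relative of KATNAL2, by 1.29 (limma adjusted p = 0.000789, 0.014 and 0.00118). Of 15 partners in secretion and membrane traffic, the flippase subunit gene TMEM30A rose by 1.10, RAB11A rose by 0.59 and the signal peptidase subunit gene SPCS3 fell by 0.82 in the brain line (limma adjusted p = 0.00103, 0.0206 and 0.00338), in a count of 3 higher and 1 lower. Among 19 partners of the methyl-CpG binding members and CXXC1, 2 rose and 2 fell, with MBD5 at 0.74, GATAD2A at -0.53 and WDR5 at -0.46 (limma adjusted p = 0.00768, 0.00942 and 0.0158). WDR5 also fell by 0.65 in the bone line (limma adjusted p = 0.00501). PTPN11 fell by 0.68 as the only call among 9 partners of DCC in the brain line, and RICTOR fell by 0.48 as the only call among 6 partners of PHLPP1 (limma adjusted p = 0.0037 and 0.0189). NEO1, a relative of DCC, rose by 0.41 and AKT1 fell by 0.43 in the bone line (limma adjusted p = 0.0284 and 0.0218). None of 7 SOCS genes was called in the brain line, and SOCS2 fell by 0.55 in the bone line (limma adjusted p = 0.0257). Neither of the 2 serpins measured from outside the stretch was called in either derivative.

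Facts on the whole series bear on these values as follows. The arrays had median log2 values of 6.58 to 6.64, replicate arrays correlated at 0.9935 to 0.9959 and arrays of different lines at 0.9666 to 0.9832 over named clusters. The sort markers CD24, CD44 and EPCAM were not called in either derivative against the parental line, with brain-line differences of -0.21, -0.41 and 0.16 and bone-line differences of 0.00, 0.14 and -0.23. Set against 231BoM-1833, 231BrM-2a had less CD44 signal (-0.54, limma adjusted p = 0.014), while CD24 and EPCAM were not called. The leukocyte marker PTPRC lay between 3.60 and 3.86 on all 6 arrays. Some markers of other cell types moved with the brain line: 3 of 5 fibroblast genes rose, COL1A1 by 0.58, LUM by 0.36 and PDGFRB by 1.70 (limma adjusted p = 0.00749, 0.0441 and 6.54e-05), and the linear sum of that list was 669 to 767 in 231BrM-2a, 459 to 493 in 231BoM-1833 and 436 to 445 in MDA-MB-231. Of 4 endothelial genes 2 fell, PECAM1 by 0.38 and KDR by 1.13 (limma adjusted p = 0.0382 and 0.000425), with sums of 230 to 251 in 231BrM-2a, 437 to 509 in 231BoM-1833 and 388 to 402 in MDA-MB-231. Of 5 leukocyte genes 1 fell, CD14 by 0.50 (limma adjusted p = 0.0195), with sums of 295 to 297 in 231BrM-2a, 510 to 551 in 231BoM-1833 and 371 to 376 in MDA-MB-231. Of 5 glial and neuronal genes RBFOX3 rose by 0.94 and MBP, itself on the long arm of chromosome 18 beyond CNDP2, fell by 0.58 (limma adjusted p = 0.00281 and 0.0084), with sums of 501 to 574 in 231BrM-2a, 492 to 505 in 231BoM-1833 and 497 to 548 in MDA-MB-231. VIM fell by 0.37 and KRT8 rose by 0.75 among the 5 carcinoma and mesenchymal genes (limma adjusted p = 0.0294 and 0.00246). The red cell marker HBB was not called. In the bone line CD14 rose by 0.88 and KDR by 0.44 (limma adjusted p = 0.00219 and 0.0444), and KRT18 fell by 0.48 (limma adjusted p = 0.0197). Log2 values have no 0 and no background level was given, so absence of a marker cannot be read from them, and the part of these markers in the members' values was not tested.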

How the data were processed

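The deposited log2 values, for each transcript cluster on each array, were made by the authors, per the series' design text, with the RMA method of Expression Console (Affymetrix), which removes background, puts the arrays on 1 scale and combines a cluster's probes. The array design's genome build and detection calls are not given in the sources used here.

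A platform table named 21214 of 33297 clusters, 19460 of them with 1 symbol. Where a symbol had several clusters, the one with the highest mean over the 6 arrays was used, which applied to IER3IP1, SMAD2, ZCCHC2 and PHLPP1. Gene order and promoters came from RefSeq (GRCh38.p14).

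limma 3.58.1 (R 4.3.3) fitted a mean for each line with lmFit and eBayes, on 3 residual and 6.06 prior degrees of freedom. Values after ± are the SE of this fit after eBayes. Its p-values were two-sided and adjusted by Benjamini-Hochberg across the 21214 named clusters, and a call needed an adjusted p under 0.05. The fit was tested on simulated data. Summaries used Python 3.11.15 with pandas 2.3.3.

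The members, role groups, partner lists and markers were chosen with earlier results of these data known. Values on every array are given for the 10 members with the lowest and the 4 with the highest brain-line difference, for the 10 called in the bone line and for 10 genes chosen for their known roles. Up to 3 called genes of each partner list with the largest change were named. On chromosome 18 the 5 neighbours on either side and the 4 non-members with the largest changes within the stretch were named. Of the markers, the sort markers and the most abundant of each other cell type were named, and PTPRC, PECAM1, PDGFRB, LUM, RBFOX3, KRT8 and KRT18 were added after their values were seen. Alternatives were all clusters tested, the dimmest 33.3% of clusters left out, quantile normalisation, limma with trend and robust options, only the 2 lines compared, the mean of a symbol's clusters, the replicate number as a block and leaving out each array. Replicate numbers were checked for pairing, and the correlations of deviations between lines were 0.04, -0.16 and -0.17. With 1 difference between replicates in each line, this check cannot exclude shared handling of same-numbered arrays. The main fit did not use the numbers.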

Additional observations from a re-analysis of the deposited data

How the results depend on the processing

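Medians and counts were recomputed under each alternative. A count was taken to stay if it was within 1.5 times its value. A median was taken to stay if it moved by less than the spread of the array medians within a line. With 1 array left out, 83 of these results stayed and 55 moved. Under the other alternatives, 169 stayed and 15 moved. Testing all clusters in place of the named ones gave 1 member higher in 231BrM-2a than in 231BoM-1833 and 1 member lower in 231BoM-1833 than in MDA-MB-231. It gave 15 lower genes between ROCK1 and HAUS1 and 8 lower partners in the brain line. In the bone line it gave 4 lower and 3 higher partners and 921 lower named clusters. That alternative adjusts over more features and also refits the spread shared between clusters, and their separate parts were not tested. Without the dimmest 33.3% of clusters, 0 members were higher in 231BrM-2a than in MDA-MB-231, as ALPK2 is left out, and 1 was higher than in 231BoM-1833, with medians of -0.53 and -0.64, which drop the dim members. Quantile normalisation gave 1 member higher in 231BrM-2a than in 231BoM-1833, and the cause was not tested.

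With the replicate number as a block (replicate block), 28 members were lower and 1 higher in 231BrM-2a than in MDA-MB-231, 31 and 2 against 231BoM-1833, and 3 lower and 5 higher in 231BoM-1833 than in MDA-MB-231. Partner genes then gave 11 lower and 19 higher calls in the brain line and 13 and 9 in the bone line. The segments of chromosome 18 gave 3 lower calls on the short arm, 20 between ROCK1 and HAUS1, 11 among the non-members of the stretch and 7 beyond CNDP2. Crossing the numbers of 231BrM-2a, a choice made after seeing the data, gave 2 members higher in the brain than in the parental line, 3 higher than in the bone line and 9 higher in the bone than in the parental line.

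Leaving out 1 array at a time gave 19 to 30 lower and 1 to 2 higher members in 231BrM-2a against MDA-MB-231, 24 to 31 and 1 to 2 against 231BoM-1833, and 0 to 4 and 3 to 8 in 231BoM-1833 against MDA-MB-231. The medians ran over -0.49 to -0.37, -0.54 to -0.41 and -0.035 to 0.062. Lower calls in the brain line ran over 1 to 3 on the short arm, 8 to 28 between ROCK1 and HAUS1, 7 to 11 among the non-members of the stretch and 4 to 8 beyond it. Partners gave 5 to 18 lower and 11 to 21 higher calls in the brain line and 2 to 16 and 2 to 12 in the bone line. Named clusters gave 756 to 2181 lower and 1008 to 2570 higher calls in 231BrM-2a against MDA-MB-231, 1466 to 2212 and 1475 to 2538 against 231BoM-1833, and 319 to 1374 and 613 to 1562 in 231BoM-1833 against MDA-MB-231. A lone array is assumed to vary like those of the other lines.

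With 2 arrays per line and no background level, small differences and dim members such as DCC, SERPINB5 and ST8SIA3 cannot be resolved. The scaling by the authors would hide a change in total RNA. The arrays do not measure gene copies or protein.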
